A study of Homo sapiens with 9 samples.

Results

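The integrin subunits that bind extracellular matrix, together with integrin-linked kinase (ILK), were followed in HepG2 cells given recombinant SPARC. The genes looked for were ITGA1, ITGA2, ITGA3, ITGA5, ITGA6, ITGAV, ITGB1, ITGB3, ITGB5 and ILK, taken by gene symbol. A transcript cluster, the set of array probes read as 1 value for a gene, carried the symbol of 9 of these 10 genes, each with 1 cluster, out of 17687 named genes in all. The signal of ITGA1, a collagen receptor subunit, is not analysed here, and the gene enters only the count of promoter motifs. HepG2 is a line grown from a human liver tumour that keeps hepatocyte features. The 9 arrays fell into 3 groups of 3, all taken after 24 h: untreated cells, cells at 200 ng/ml SPARC and cells at 800 ng/ml SPARC. No label gives a vehicle for the untreated cells or says whether replicates were separate cultures, so the p-values rest on the variation among these arrays, and that variation may be technical. The RNA protocol in the labels mentions the 800 ng/ml dose beside untreated cells, while the sample labels give both doses.

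Integrins are receptors made of an alpha and a beta subunit that span the membrane and join the matrix outside the cell to the actin skeleton inside it. The alpha subunit largely sets the ligand, and the beta tail recruits talin, kindlin and, directly or through these, ILK. ILK is an adaptor of the kinase fold that sits with the PINCH and parvin proteins in a complex at matrix adhesions. SPARC, a glycoprotein released into the matrix, attaches to collagen and alters how cells hold on to it, and integrins with the subunit encoded by ITGB1, and ILK, have been named among the mediators of its signals. Liver parenchymal cells use few of these receptors, and ITGB1 is their common beta subunit.

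Values are log2 signals, so a difference of 1 is a ratio of 2. One array, untreated replicate 2, differed from the rest, with a Pearson correlation of 0.891 to 0.920 with them, against 0.979 to 0.991 among the other 8. Genes in the brightest 25% by mean signal of the other 8 arrays were lower in this array than in untreated replicates 1 and 3 by a median log2 difference of -0.82, and genes in the dimmest 25% were higher by 0.38. Of the 9 genes, ITGA3, ITGA5 and ITGB3 lay in the dimmest 25% and the other 6 in the brightest, and untreated replicate 2 was below all 8 other arrays for those 6. It was above all 8 for ITGA5 and ITGB3 and within their range for ITGA3. Each difference from untreated cells is therefore also given without that array. Mean log2 signals of the 9 measured hepatocyte markers, ALB and AFP among them, ran from 10.32 to 10.58 without SPARC, from 10.46 to 10.59 with the lower dose and from 10.59 to 10.62 with the higher.

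**Figure D1:**
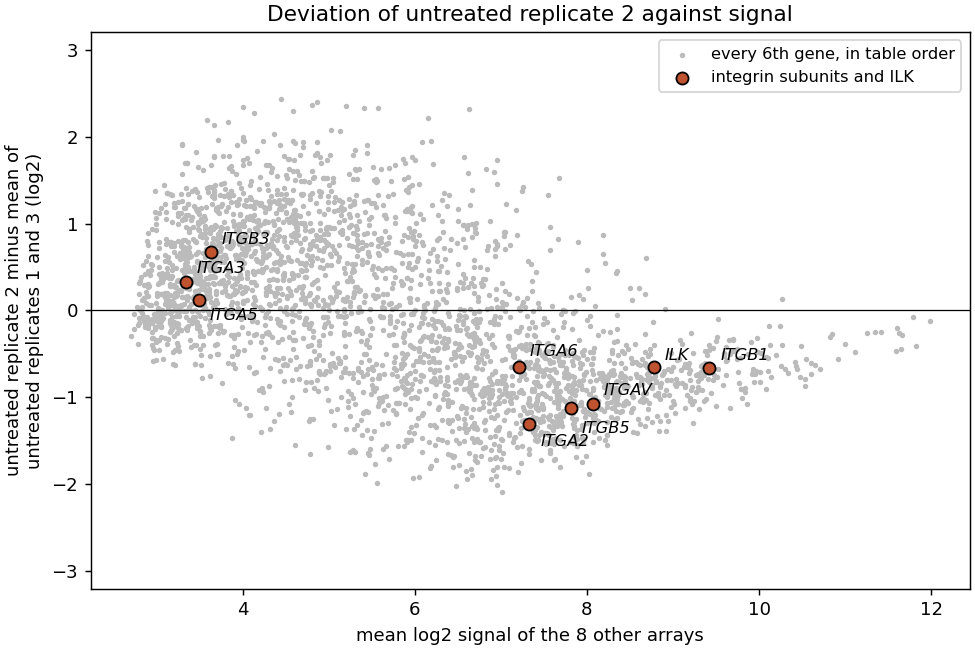
Deviation of untreated replicate 2 from the mean of untreated replicates 1 and 3 (y axis, log2) against the mean log2 signal of the 8 other arrays (x axis); grey points are every 6th gene and red points the integrin subunits and ILK. The 6 brighter genes sit between -1.31 (ITGA2) and -0.65 (ITGA6), and the 3 dimmer ones between 0.12 (ITGA5) and 0.68 (ITGB3).

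The largest difference from untreated cells among the 9 genes was that of ITGA5, the alpha subunit of the main fibronectin receptor, whose signal was lower at both doses. It read 3.85, 4.05 and 4.02 in untreated replicates 1, 2 and 3, then 3.52, 3.33 and 3.18 at 200 ng/ml and 3.51, 3.18 and 3.30 at 800 ng/ml. All 6 treated arrays lay below all 3 untreated arrays, and the groups of the 2 doses overlapped. The mean without SPARC was 3.97 ± 0.11 (SD, n = 3), against 3.34 ± 0.17 for the 200 ng/ml dose and 3.33 ± 0.17 for the 800 ng/ml dose.

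The log2 difference of ITGA5 from untreated was -0.63 ± 0.19 (SE) at 200 ng/ml, a ratio of 0.647 with a 95% interval of 0.487 to 0.859. At 800 ng/ml it was -0.64 ± 0.19, a ratio of 0.641 with an interval of 0.483 to 0.851. Neither passed the test, for which a gene needed a Benjamini-Hochberg adjusted p under 0.05 over 17687 genes (limma, adjusted p = 0.966 and 0.659). The unadjusted p of ITGA5 ranked 6 at 200 ng/ml and 33 at 800 ng/ml with all arrays, and 181 and 54 without untreated replicate 2. The exact two-sided permutation test gave p = 0.1 for each, the smallest that 3 against 3 arrays allow. Both doses share the untreated arrays, so the 2 values are not independent. Between the doses the log2 difference was -0.01, with an interval of -0.42 to 0.40.

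The log2 difference of ITGA5 without untreated replicate 2 was -0.59 ± 0.15 at 200 ng/ml and -0.60 ± 0.15 at 800 ng/ml (limma, adjusted p = 0.310 and 0.861). It passed with estimated array weights (log2 difference -0.59 and -0.56, limma, adjusted p = 0.00948 and 0.0177), a fit that weighted untreated replicate 1 at 10.7 and replicate 2 at 0.0399. That fit also called 1971 of all 17687 genes at 200 ng/ml and 732 at 800 ng/ml, where the main fit called 0. With weights but without untreated replicate 2 ITGA5 did not pass (limma, adjusted p = 0.159 and 0.498). At 800 ng/ml the difference was -0.46 with replicate 1 as the single array of that dose, and -0.42 with untreated replicate 2 left out as well. The signal is in the dimmest 25% of genes and no detection calls came with the values, so whether ITGA5 lay above background is not known.

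The promoters of ITGA5 and ITGB1 are shown because their products form the fibronectin receptor together, and ITGA5 was lower than untreated in all 6 treated arrays whereas the ITGB1 groups overlapped. Each runs from 250 bases before to 10 bases after a transcript start annotated by RefSeq (GRCh38.p14), on the minus strand, at chr12:54419257-54419516 for ITGA5 and chr10:32958221-32958480 for the upstream start of ITGB1. Capitals mark matches to the GC box bound by SP1-type factors (GGGCGG, either strand) and to the AP-1 motif (TGANTCA), which do not overlap here.
ITGA5: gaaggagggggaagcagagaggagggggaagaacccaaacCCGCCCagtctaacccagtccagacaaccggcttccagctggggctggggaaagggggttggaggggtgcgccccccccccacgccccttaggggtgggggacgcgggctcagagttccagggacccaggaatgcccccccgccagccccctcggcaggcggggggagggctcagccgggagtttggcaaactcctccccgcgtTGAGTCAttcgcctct
ITGB1: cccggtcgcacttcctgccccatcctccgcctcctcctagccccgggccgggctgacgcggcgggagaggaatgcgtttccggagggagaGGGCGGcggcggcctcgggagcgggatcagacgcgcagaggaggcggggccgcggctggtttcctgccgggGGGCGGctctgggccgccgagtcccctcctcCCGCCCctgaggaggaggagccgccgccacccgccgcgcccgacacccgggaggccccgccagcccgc

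The ITGA5 window held 1 AP-1 match, which begins 6 bases before the start, and 1 GC box. The ITGB1 window held 3 GC boxes and no AP-1 match. RefSeq windows were found for 8 of the 10 genes, ITGA1 included, with 13 starts in all, and among them ITGA5 alone had an AP-1 match and 6 genes had a GC box. A gene was counted if any of its windows held a match, so the gene counts cannot be set directly against a share of single windows. Over all 35116 single windows of 300 bases (250 before to 50 after a start), 7.71% held the AP-1 motif and 45% the GC box. These matches are a description of the letters and say nothing of binding.

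ITGAV forms the vitronectin receptors with ITGB3 or ITGB5 and also binds latent TGF-beta. Its signals were 8.05, 6.94 and 7.98 in untreated replicates 1, 2 and 3, 8.04, 8.04 and 8.08 at 200 ng/ml, and 7.95, 8.21 and 8.24 at 800 ng/ml. Untreated replicate 2 alone was low, and the other 8 arrays lay within 0.29 of each other. The log2 difference from untreated was 0.40 ± 0.27 (SE) at 200 ng/ml and 0.48 ± 0.27 at 800 ng/ml (limma, adjusted p = 0.966 and 0.659). Without untreated replicate 2 it was 0.04 ± 0.12 and 0.12 ± 0.12, with intervals of -0.24 to 0.32 and -0.16 to 0.39.

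The higher ITGAV signals at 800 ng/ml were in replicates 2 and 3. Those are also the arrays in which the mean log2 signal of 10 astrocyte and neural markers, GFAP and NTRK2 among them, was high. It was 4.43, 6.06 and 6.003 in replicates 1, 2 and 3. In untreated cells it was 4.24 to 4.72, and at 200 ng/ml 4.15 to 4.497. Of these markers 9 were higher and 1 was lower at 800 ng/ml, against untreated and also against 200 ng/ml. Their part in the ITGAV signals was not tested. With 800 ng/ml replicate 1 alone set against the untreated arrays other than replicate 2, the ITGAV difference was -0.06.

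ITGB5, the beta partner in the receptor for vitronectin that is widespread on epithelial cells, had its lowest signal in the same array as ITGAV. It read 7.83, 6.73 and 7.87 in untreated cells, 7.84, 7.68 and 7.68 at 200 ng/ml, and 7.82, 7.95 and 7.80 at 800 ng/ml. The 3 groups overlapped. The log2 differences from untreated of 0.25 ± 0.28 (SE) and 0.38 ± 0.28 became -0.12 ± 0.11 and 0.0046 ± 0.11 without that array, and none passed.

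ITGB3, the beta subunit of the vitronectin receptor of endothelium and osteoclasts and of the platelet fibrinogen receptor, had a dim signal. It read 3.67, 4.35 and 3.67 in untreated cells, 3.82, 3.42 and 3.69 at 200 ng/ml, and 3.51, 3.69 and 3.59 at 800 ng/ml. The groups overlapped at both doses. Its log2 difference from untreated was -0.25 ± 0.22 (SE) and -0.30 ± 0.22 with all arrays, and -0.03 ± 0.14 and -0.08 ± 0.14 without untreated replicate 2. Endothelial markers moved with that array as well, with a mean log2 signal over 8 genes of 5.10 in untreated replicate 2 against 4.26 and 4.27 in replicates 1 and 3, 4.30 to 4.38 at 200 ng/ml and 4.13 to 4.39 at 800 ng/ml; their part in the ITGB3 signal was not tested.

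ITGA2, the alpha subunit of a collagen receptor, was the gene with the largest log2 difference between the doses. Its signals were 7.26, 6.001 and 7.36 in untreated cells, 6.92, 7.27 and 7.33 at 200 ng/ml, and 7.66, 7.42 and 7.42 at 800 ng/ml. All 3 arrays at 800 ng/ml lay above all 6 other arrays. The order of the group means was 800 ng/ml, 200 ng/ml and untreated, at 7.501 ± 0.13 (SD, n = 3), 7.17 ± 0.22 and 6.88 ± 0.76.

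The log2 difference of ITGA2 between 800 and 200 ng/ml was 0.33, with an interval of -0.37 to 1.03 in the fit of all arrays (limma, adjusted p = 0.999). Untreated replicate 2 enters this comparison only through the shared estimate of spread. Without it the value was the same and the interval ran from 0.03 to 0.63, a ratio of 1.26 with bounds of 1.02 and 1.55 (limma, unadjusted p = 0.037, adjusted p = 0.299). The difference between 800 ng/ml and untreated was 0.63 ± 0.32 (SE) with all arrays and 0.19 ± 0.15 without untreated replicate 2. At 200 ng/ml the difference from untreated changed sign, from 0.30 ± 0.32 to -0.14 ± 0.15. The highest 800 ng/ml array for ITGA2 was replicate 1, in which the mean log2 signal of the neural markers was 4.43. The part of these markers in the ITGA2 signals was not tested.

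ITGA6 and ITGA3 encode alpha subunits of laminin receptors. ITGA6 had 7.44, 6.74 and 7.33 in untreated cells, 6.88, 7.14 and 7.22 at 200 ng/ml, and 7.15, 7.13 and 7.38 at 800 ng/ml. With all arrays its log2 differences from untreated were -0.09 ± 0.22 (SE) at 200 ng/ml and 0.05 ± 0.22 at 800 ng/ml. Without untreated replicate 2 all 3 arrays at 200 ng/ml lay below the 2 remaining untreated arrays, and the difference was -0.30 with an interval of -0.62 to 0.01 (limma, adjusted p = 0.453). At 800 ng/ml the difference changed sign without that array, to -0.16 with an interval of -0.48 to 0.15 (limma, adjusted p = 0.979), and the groups overlapped.

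ITGA3 read 3.29, 3.51 and 3.06 in untreated cells, 3.52, 3.37 and 3.196 at 200 ng/ml, and 3.28, 3.29 and 3.72 at 800 ng/ml. Its lowest array was untreated replicate 3 and its highest 800 ng/ml replicate 3, and all groups overlapped. The log2 differences from untreated were 0.08 ± 0.21 (SE) and 0.14 ± 0.21, and 0.19 ± 0.17 and 0.25 ± 0.17 without untreated replicate 2.

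ITGB1 encodes the beta subunit shared by the collagen, laminin and fibronectin receptors named here. Its signals were 9.43, 8.76 and 9.40 in untreated cells, 9.33, 9.59 and 9.52 at 200 ng/ml, and 9.31, 9.34 and 9.47 at 800 ng/ml. Apart from untreated replicate 2 the arrays lay within 0.28 of each other, and the groups overlapped. The log2 difference from untreated was 0.29 ± 0.21 (SE) at 200 ng/ml and 0.18 ± 0.21 at 800 ng/ml (limma, adjusted p = 0.966 and 0.704). Without untreated replicate 2 the ratios to untreated were 1.05 at 200 ng/ml, with an interval of 0.867 to 1.27, and 0.972 at 800 ng/ml, with an interval of 0.804 to 1.18.

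ILK had the narrowest range of the 9 genes over the 8 arrays other than untreated replicate 2. Its signals were 8.78, 8.17 and 8.87 in untreated cells, 8.78, 8.74 and 8.76 at 200 ng/ml, and 8.72, 8.71 and 8.83 at 800 ng/ml. Those 8 arrays lay within 0.16 of each other. With all arrays the log2 difference from untreated was 0.15 ± 0.21 (SE) at either dose. Without untreated replicate 2 the ratio was 0.955 at 200 ng/ml, with an interval of 0.807 to 1.13, and 0.951 at 800 ng/ml, with an interval of 0.804 to 1.13. Between the doses the ratio was 0.996, with an interval of 0.857 to 1.16 in that fit. Differences inside these bounds were not detectable with these arrays.

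**Figure D2:**
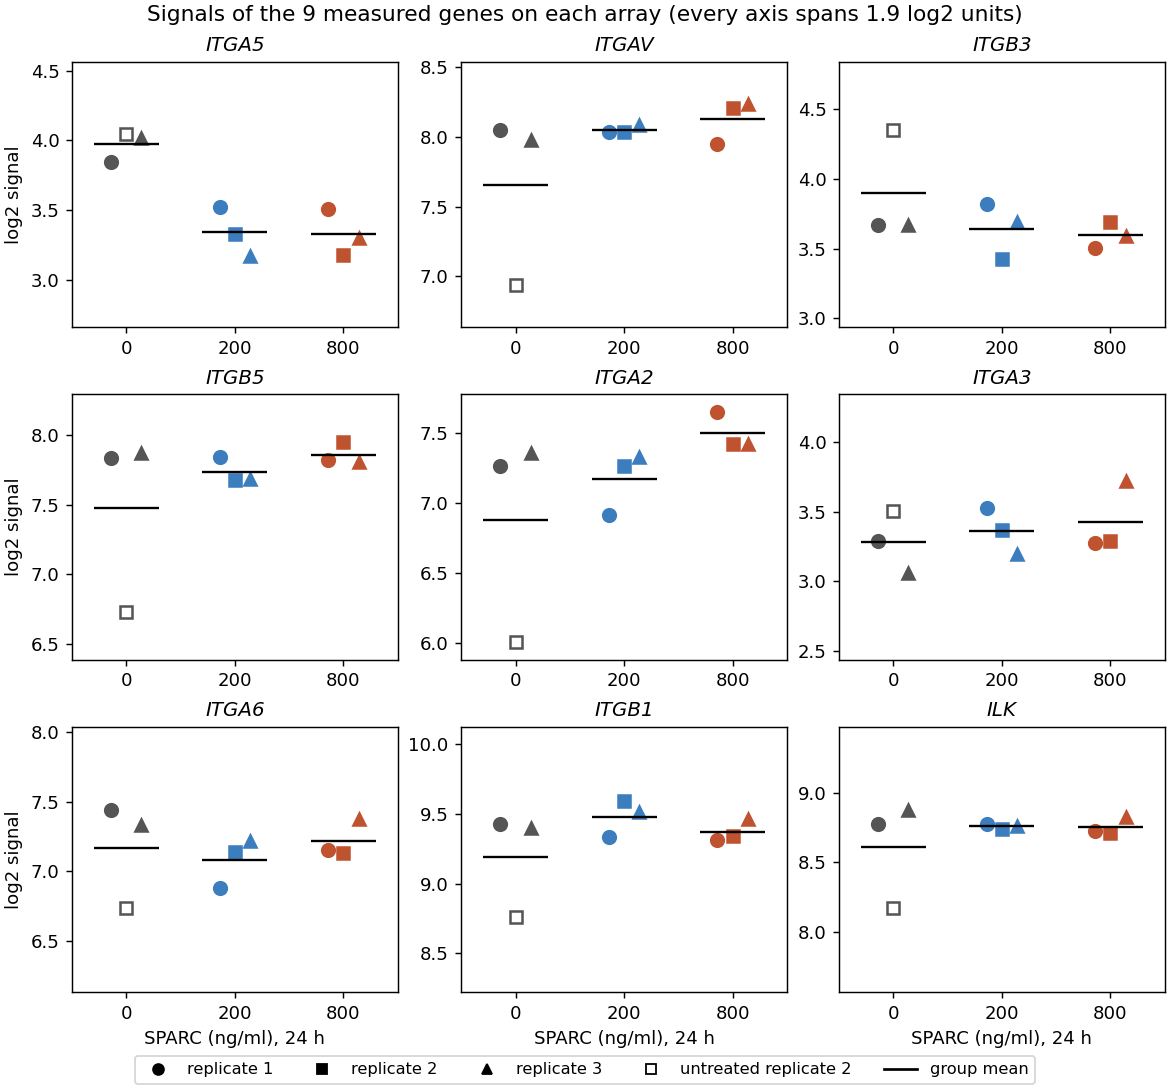
Log2 signal (y axis) of each measured gene on the 9 arrays by SPARC dose in ng/ml (x axis); symbols give the replicate, the open square is untreated replicate 2 and bars are group means. ITGA5 is at 3.85 to 4.05 in untreated cells and at 3.18 to 3.52 in the 6 treated arrays. For ITGAV, ITGB5, ITGA2, ITGB1 and ILK untreated replicate 2 lies apart below the rest, and for ITGB3 above the rest.

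Counted over the 9 measured genes, 0 passed the test at 200 ng/ml against untreated, at 800 ng/ml against untreated or between the doses, as did 0% of all 17687 genes in each comparison (limma with Benjamini-Hochberg adjustment). At an unadjusted p under 0.05 there was 1 of 9 at 200 ng/ml, ITGA5, beside 1.78% of all genes, 1 of 9 at 800 ng/ml, again ITGA5, beside 4.17%, and 0 of 9 between the doses beside 2.41%. The arrays of the groups compared did not overlap for ITGA5 at 200 ng/ml (6.98% of all genes), for ITGA5 and ITGA2 at 800 ng/ml (11.2%) and for ITGA2 between the doses (21.9%).

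The median log2 difference of the 9 genes from untreated was 0.15 at 200 ng/ml and 0.15 at 800 ng/ml, beside 0.03 and 0.04 over all genes. The signs were mixed, with 6 of 9 higher at 200 ng/ml (54.1% of all genes) and 7 of 9 higher at 800 ng/ml (54.6%). Between the doses 5 of 9 were higher at 800 ng/ml (52.3%), with a median of 0.06 beside 0.01. Without untreated replicate 2 the medians were -0.07 and -0.04, beside -0.02 and -0.01 over all genes, with 3 and 4 of 9 higher (47.2% and 48.2% of all genes). In that fit the groups did not overlap for ITGA5, ITGA6 and ILK at 200 ng/ml, all lower (31.5% of all genes did not overlap), and for ITGA5 and ITGA2 at 800 ng/ml (22.3%). ITGA5 at each dose and ITGA2 between the doses had an unadjusted p under 0.05 in it, beside 11.3%, 5.36% and 15.3% of all genes.

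**Figure D3:**
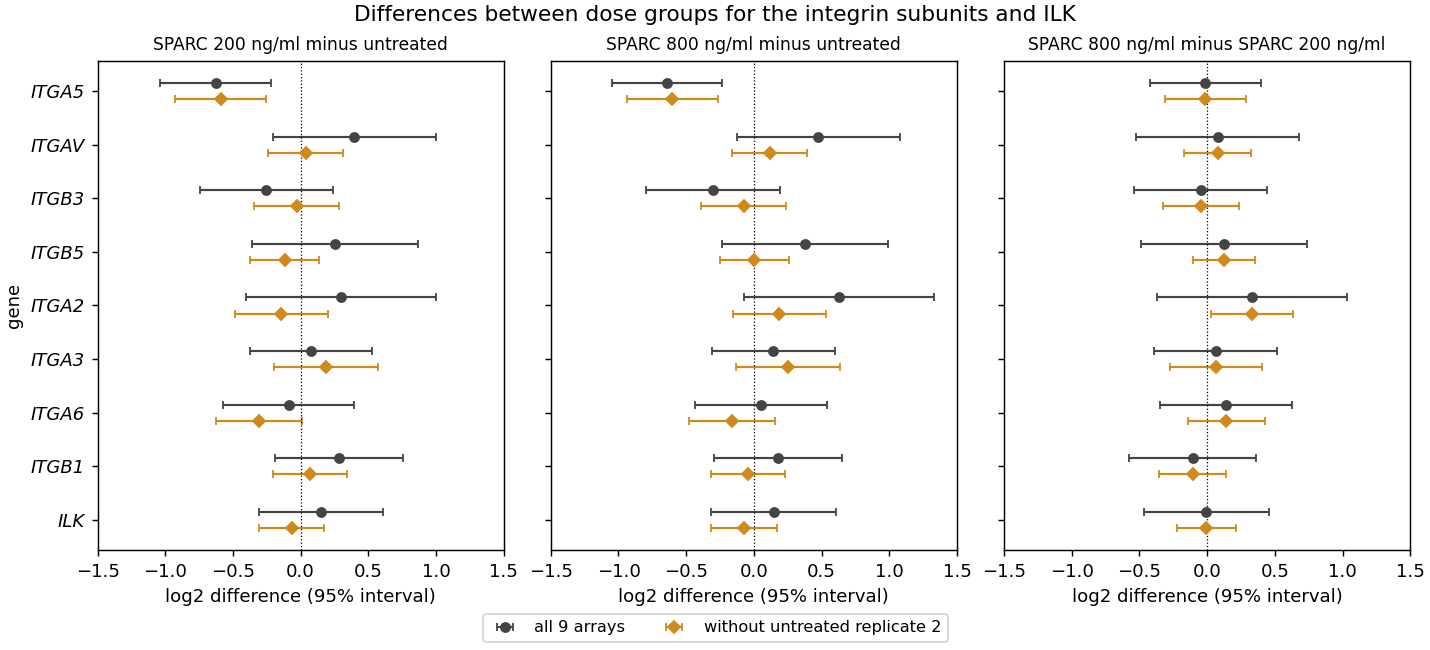
Log2 differences (x axis) with 95% intervals from the moderated fit for each gene (y axis) in the 3 comparisons, with all 9 arrays (grey circles) and without untreated replicate 2 (orange diamonds). The ITGA5 intervals lie below 0 at both doses in both fits, and the ITGA2 interval between the doses lies above 0 only without untreated replicate 2 (0.03 to 0.63).

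The other 17 integrin subunits, which serve mainly leukocytes, muscle and specialised epithelia, were all measured. Of these, 0 passed in any comparison (limma). At 800 ng/ml against untreated 3 of 17 were higher, beside 54.6% of all genes, with a median log2 difference of -0.23, beside 0.04. Of the 17 subunits, 15 were in the dimmer 50% of genes, and without untreated replicate 2 the median was -0.11, with 5 of 17 higher, beside 48.2% of all genes. ITGAM, the alpha subunit of a myeloid receptor, had 3.67, 3.65 and 3.77 at 800 ng/ml against 4.33, 4.001 and 4.22 at 200 ng/ml. Its log2 difference between the doses was -0.49 ± 0.23 (SE; limma, adjusted p = 0.999).

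ITGB8, a partner of ITGAV in the activation of latent TGF-beta, had a log2 difference from untreated of 0.67 ± 0.33 (SE) at 800 ng/ml (limma, adjusted p = 0.659), and of 0.69 without untreated replicate 2. Its signals there were 2.85, 2.93 and 4.29 against 2.67, 2.73 and 2.66 in untreated cells, and replicate 3 was the high array. The other values are low, beside a lowest value of 2.19 over all clusters. In 800 ng/ml replicate 3 the mean log2 signal of the neural markers was also high, at 6.003. Their part in the ITGB8 signal was not tested. At 200 ng/ml against untreated the smallest p of this list belonged to ITGA8, which pairs with ITGB1 (-0.63 ± 0.23, adjusted p = 0.966), and to the leukocyte subunit ITGAD (-0.51 ± 0.28). These log2 differences were -0.41 for ITGA8 and -0.24 for ITGAD without untreated replicate 2. ITGA10, a collagen receptor subunit of cartilage, had -0.48 ± 0.25 between the doses.

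Of 37 ILK partners and other adhesion proteins on the cytoplasmic side, 33 were measured and 0 passed in any comparison (limma). Their median log2 difference from untreated was 0.09 at 200 ng/ml and 0.16 at 800 ng/ml, beside 0.03 and 0.04 over all genes. Of the 33, 22 and 23 were higher, beside 54.1% and 54.6% of all genes. Without untreated replicate 2 the medians were -0.02 and -0.06, beside -0.02 and -0.01 over all genes. In that fit 15 and 14 of 33 were higher, beside 47.2% and 48.2%. Of the 33 genes, 22 were brighter than the median gene. Their median deviation in untreated replicate 2 from the other untreated arrays was -0.45. PARVA, the alpha-parvin that binds ILK, had 6.50, 5.78 and 6.34 in untreated cells, 6.71, 6.70 and 6.44 at 200 ng/ml, and 6.69, 6.51 and 6.61 at 800 ng/ml. Its log2 differences from untreated of 0.41 ± 0.22 (SE) and 0.39 ± 0.22 were 0.19 and 0.18 without untreated replicate 2.

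Vinculin (VCL), which ties talin to actin, had 8.94, 7.92 and 8.94 in untreated cells, 9.05, 9.04 and 9.16 at 200 ng/ml, and 9.20, 9.13 and 9.24 at 800 ng/ml. The treated arrays lay above the untreated ones at both doses, where 6.98% of all genes did not overlap at 200 ng/ml and 11.2% at 800 ng/ml. VCL was the 1 gene of the 33 with an unadjusted p under 0.05 at 800 ng/ml, beside 4.17% of all genes. The log2 differences from untreated of 0.49 ± 0.26 (SE) and 0.59 ± 0.26 were 0.15 and 0.25 without untreated replicate 2 (limma, adjusted p = 0.628 and 0.921). LIMS2, which encodes a PINCH protein, had -0.65 ± 0.35 between the doses, and ITGB1BP1, an inhibitor that binds the tail of the ITGB1 product, had 0.48 ± 0.27, with no pass for either.

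Of 30 matrix ligands of these integrins, 25 were measured and 0 passed in any comparison (limma). The median log2 difference from untreated was 0.08 at 200 ng/ml and 0.18 at 800 ng/ml, beside 0.03 and 0.04 over all genes. Of the 25, 16 and 15 were higher, beside 54.1% and 54.6% of all genes. Without untreated replicate 2 the medians were -0.08 and -0.02, beside -0.02 and -0.01 over all genes. In that fit 11 and 10 of 25 were higher, beside 47.2% and 48.2%. Of the 25 genes, 20 were brighter than the median gene. Their median deviation in untreated replicate 2 from the other untreated arrays was -0.39. Vitronectin (VTN), a plasma protein of the liver and ligand of the ITGAV receptors, had 8.83, 7.84 and 8.77 in untreated cells and 9.13, 8.98 and 9.03 at 200 ng/ml. The 200 ng/ml arrays lay above the untreated ones (6.98% of all genes did not overlap), by a log2 difference of 0.57 ± 0.27 (SE) with all arrays and 0.25 without untreated replicate 2. TGFB1 had 0.50 ± 0.28 at 200 ng/ml and 0.12 without that array.

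COL1A2, a chain of collagen I, had 6.67, 6.55 and 6.54 at 800 ng/ml, 7.47, 6.998 and 7.16 at 200 ng/ml, and 6.94, 8.20 and 6.71 in untreated cells. The 800 ng/ml arrays lay below the other 6. Of all genes 11.2% did not overlap between 800 ng/ml and untreated, and 21.9% between the doses. The log2 differences of COL1A2 were -0.70 ± 0.33 (SE) from untreated and -0.62 ± 0.33 from 200 ng/ml (limma, adjusted p = 0.659 and 0.999). The first was -0.24 without untreated replicate 2. In that array the 7 measured fibroblast markers, COL1A2 among them, had a mean log2 signal of 5.37. It was 4.39 and 4.31 in replicates 1 and 3, 4.44 to 4.63 at 200 ng/ml and 4.36 to 4.49 at 800 ng/ml. Of the 7 markers, 5 were dimmer than the median gene. The endothelial, blood and neural markers were also higher in that array. The part of the fibroblast markers in the COL1A2 difference from untreated was not tested. LAMA2, a laminin chain of muscle and mesenchyme, had -0.34 ± 0.18 at 800 ng/ml against untreated and -0.35 without untreated replicate 2, and FBN1, a microfibril protein, had 0.49 ± 0.23 between the doses.

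**Figure D4:**
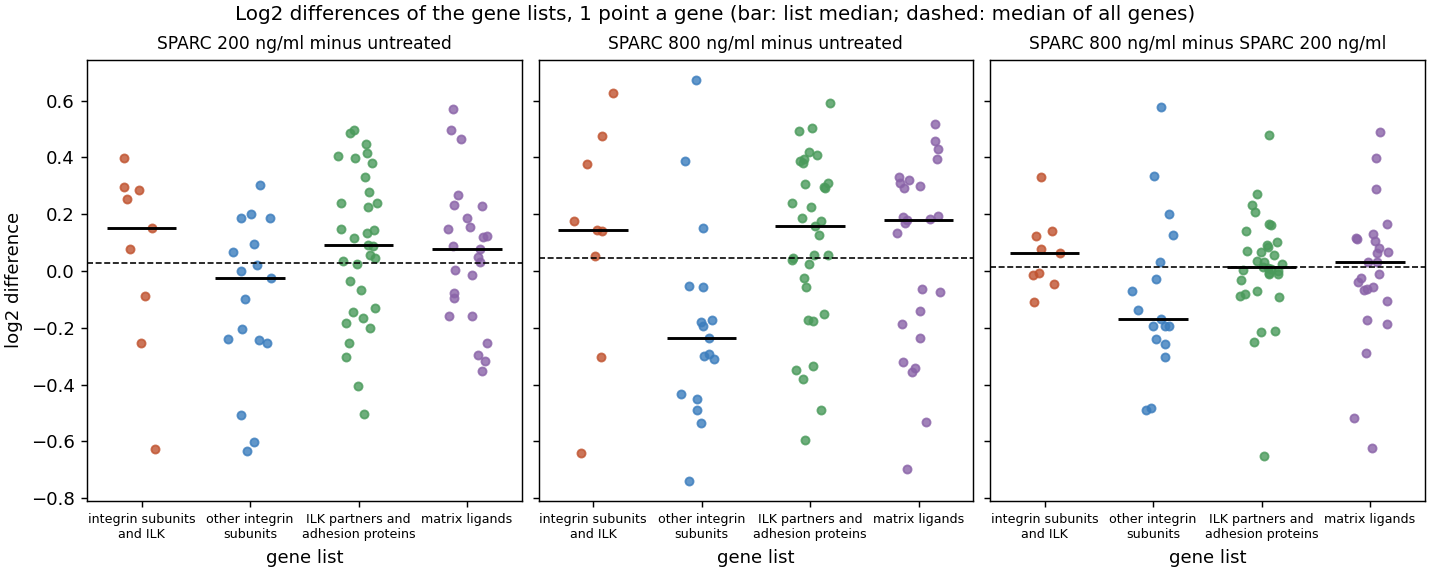
Log2 differences (y axis) of single genes in 4 lists (x axis) for the 3 comparisons with all 9 arrays; bars are list medians and dashed lines the median of all genes. The other integrin subunits have a median of -0.23 at 800 ng/ml against untreated, and the 9 integrin subunits and ILK a median of 0.15.

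The genes whose pattern over the 9 arrays was most like that of a member were found by the root mean square difference of centred log2 signals. For ITGA5 these were RCVRN at 0.097, CLIC6 at 0.121 and ALDH8A1 at 0.138, beside an SD of 0.34 for ITGA5 itself. For ITGB1 they were SLC38A12, MCM8 and WDR74, at 0.042 to 0.050. For ILK they were ETFB, STRADB and SYAP1, at 0.035 to 0.037. All 6 genes near ITGB1 and ILK were lowest in untreated replicate 2. ITGB1 and ILK were themselves lowest in that array, so this follows from how the genes were picked.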

How the data were processed

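The authors deposited 1 table with a log2 signal for 21448 transcript clusters on 9 arrays, made from biotin-labelled total RNA, per the labels. The log2 scale is read from the range of values, 2.19 to 13.4. The submitters' processing notes name R 3.0; how the signals were normalized or filtered is not stated in what was used here. The platform annotation gave 17709 clusters 1 gene symbol; the cluster with the highest mean was kept, which left 17687 genes. One limma model (version 3.58.1, R 4.3.3) held all 3 groups (lmFit, eBayes, contrasts of group means), with Benjamini-Hochberg adjustment over all genes and 95% intervals. The fit was tested on simulated data. The members and lists were chosen with earlier results of these data known. Of each list the 2 genes with the smallest p in each comparison are named. Likeness was computed for ITGA5, ITGB1 and ILK, with 3 genes each. Precision is limited by having 3 arrays a group. Alternatives covered normalization, filters on dim genes, the prior, array weights, the replicate number as a block and left-out arrays.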

Additional observations from a re-analysis of the deposited data

How the results depend on the processing

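The 9 measured genes were refitted under 23 other settings, and 528 of 603 recomputed log2 differences kept their sign. Many of these could not change, so that count is no measure of stability. The other prior, only the arrays compared, the replicate block with all arrays, the filters and the cluster mean repeat the main log2 differences. Leaving out an array outside the comparison does so too. The settings that leave out 800 ng/ml replicates 2 and 3, and array weights without untreated replicate 2, were chosen after seeing the data. ITGA5 kept a negative difference from untreated in each setting that held it, and the filters that drop the dimmest 25% or 50% of genes drop ITGA5, ITGA3 and ITGB3. The cause of the sign changes below was not tested. Comparisons A, B and C are 200 ng/ml minus untreated, 800 ng/ml minus untreated and 800 minus 200 ng/ml. Array weights called 1971, 732 and 6 of 17687 genes in these, with 1 member, ITGA5, in A and B (-0.59 and -0.56). They gave ITGA2 -0.018, ITGB5 -0.13 and ILK -0.025 in A, ITGA6 -0.19, ITGB1 -0.042 and ILK -0.023 in B, and ITGA5 0.028 and ILK 0.0017 in C. Quantile normalization gave ILK -0.011 in A, ITGA6 -0.094, ITGB1 -0.022 and ILK -0.070 in B, and ITGA5 0.0075 in C. Median centring gave ITGA5 0.0065 and ILK 0.014 in C. Quantile normalization without untreated replicate 2 gave ITGA2 -0.062, ITGB5 -0.032 and ILK -0.0065 in A, ITGA6 -0.16, ITGB1 -0.026 and ILK -0.065 in B, and ITGA5 0.0069 in C. Array weights without untreated replicate 2 gave ITGA2 -0.062, ITGB5 -0.15 and ILK -0.068 in A, ITGA6 -0.15, ITGB1 -0.028 and ILK -0.066 in B, and ITGA5 0.029 and ILK 0.0019 in C. Without 800 ng/ml replicates 2 and 3 B gave ITGA3 -0.0071 and ITGA6 -0.017, and C ITGA3 -0.084, ITGA5 0.17 and ITGAV -0.10. Leaving out untreated replicate 2 as well gave ITGA2 -0.14, ITGB5 -0.12 and ILK -0.067 in A, ITGA6 -0.23, ITGAV -0.064, ITGB1 -0.10, ITGB5 -0.031 and ILK -0.10 in B, and the same ITGA3 -0.084, ITGA5 0.17 and ITGAV -0.10 in C. Leaving out 1 array at a time gave ranges that cross 0: in A, ITGA2 -0.14 to 0.54, ITGA3 -0.033 to 0.19, ITGA6 -0.30 to 0.046, ITGB5 -0.12 to 0.45 and ILK -0.067 to 0.28. In B these were ITGA3 -0.0029 to 0.25, ITGA6 -0.16 to 0.19, ITGB1 -0.041 to 0.30 and ILK -0.073 to 0.28, and in C ITGA3 -0.080 to 0.15, ITGA5 -0.10 to 0.076, ITGB3 -0.16 to 0.040 and ILK -0.042 to 0.016. In these fits without 1 array, called genes ranged from 0 to 12 in B and 0 to 15 in C, with 0 members among them. The highest count in both was without 800 ng/ml replicate 1.

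The labels do not say whether the replicate numbers pair the samples. Deviations of same-numbered arrays from their group means correlated at -0.252, -0.253 and 0.056 between 200 ng/ml and untreated. Between 800 ng/ml and untreated the correlations were 0.010, 0.113 and 0.084. Untreated replicate 2 shifts the deviation of every untreated array, so the correlations with untreated cannot decide on pairing. Between the doses they were 0.000, -0.046 and 0.034. The replicate block called 0 genes in each comparison (limma). Without untreated replicate 2 the block gave ITGA2 -0.15, ITGB3 0.0027, ITGB5 -0.13 and ILK -0.050 at 200 ng/ml against untreated, and ITGA6 -0.16, ITGB1 -0.061, ITGB5 -0.0037 and ILK -0.056 at 800 ng/ml.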
